A study of Mus musculus with 24 samples.

Results

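The clustered histone genes encode the bulk histones that package newly copied DNA. By symbol they belong to Hist1 and Hist2, which are groups of neighbouring genes, and to Hist4, which is 1 gene here. They were chosen by symbol and by read number: a row of the count table was a member if its symbol started with Hist1h, Hist2h or Hist4h and its counts over the 24 libraries added to 50 or more. Of 65 such symbols among the 24015 genes of the table, 50 were members, with 43 in the Hist1 cluster, 6 in Hist2 and 1 in Hist4. By the class in the symbol, 5 encode the linker histone H1, 11 encode H2A, 13 H2B, 10 H3 and 11 H4. The members with the fewest reads were Hist1h2bl with 50 counts and Hist1h3b with 53, and just outside stood Hist1h1t with 26, Hist1h2bp with 12 and Hist1h2an with 5, while the other 12 symbols had a count of 0 in every library. The sum that chose the members covers sham and TAC libraries together, so that a gene with reads in TAC libraries only could enter. In the 12 sham libraries alone 48 of the 50 had at least 25 counts, and the exceptions were Hist1h2bl and Hist1h3b.

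Total RNA of the left ventricle was sequenced from mice at days 2, 4, 7 and 21 after a sham operation or after transverse aortic constriction (TAC), in which a narrowed aorta makes the ventricle pump against raised pressure. Each of the 8 groups had 3 libraries, and libraries held 10689684 to 17563210 counted reads. The sources used here do not give strain, age or sex, nor whether a group's libraries came from separate animals, so that p-values measure the spread between these libraries, which may be technical. Heart muscle markers (Myh6, Tnnt2, Tnni3, Actc1, Myl2, Ryr2 and Pln) summed to 49889 to 101730 CPM (counts as a rate of the library total, scaled between libraries by TMM) in every library, and 4 libraries held over 30 CPM of the atrial myosin light chain Myl7 (sham day 2 replicates 2 and 3, TAC day 7 replicate 1 and sham day 21 replicate 2). In the ventricle, fewer cells of a type and less RNA per cell cannot be told apart.

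Most genes of these clusters are known as replication-dependent histone genes: cells transcribe them in S phase, when DNA is copied, and degrade their mRNA at its end. Their mRNA has no introns and usually ends in a short hairpin in place of a poly(A) tail, and the stem-loop binding protein Slbp holds that hairpin during processing, export and translation. Outside S phase cells rely on replacement histones such as H3.3 and H2A.Z from genes elsewhere, and in the adult heart most muscle cells do not divide, whereas fibroblasts, endothelial cells and immune cells can. The sources used here do not say whether the libraries were selected for poly(A) tails.

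The hairpin is the feature that sets the members apart from other mRNAs, so the 6 forms found are shown, each in 1 gene, as DNA letters with 5 bases on each side and the hairpin (a stem of 6 base pairs and a loop of 4 bases) in capitals. They were read from GENCODE transcripts, within the bases after the stop codon.
Hist1h2ab: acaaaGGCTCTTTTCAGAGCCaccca
Hist1h3c: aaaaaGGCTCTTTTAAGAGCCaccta
Hist2h2ac: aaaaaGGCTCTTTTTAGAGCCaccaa
Hist1h4d: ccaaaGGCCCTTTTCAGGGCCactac
Hist2h4: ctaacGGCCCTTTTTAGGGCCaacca
Hist1h4b: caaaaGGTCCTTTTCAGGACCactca
A hairpin with a perfect stem was found in 32 of the 50 members, 21 to 54 bases after the stop codon. The form of Hist1h2ab was in 17 members of the classes H1, H2A, H2B and H3, and the form of Hist1h3c in 5 H2B and H3 members. The H4 genes used other letters: the form of Hist1h4d was in 5 of them, that of Hist2h4 in 2 and that of Hist1h4b in 2, and none of these 3 was in another class. No hairpin was found in 18 members, 12 of which have under 16 annotated bases after the stop codon. The other 6 are Hist1h2bc and Hist2h2be, which were not called higher at any day, and Hist1h1a, Hist1h3g, Hist1h4a and Hist2h3b, which rose at days 4 and 7.

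Promoters bear on genes that move together, and 45 of the 50 members had an entry in the RefSeq promoter table (build GRCm38.p6). The last 150 bases before the transcription start of 3 members are shown, with 3 motifs in capitals on either strand. They are TATAAA (the TATA box), the CCAAT box, which reads ATTGG on the other strand, and the octamer of histone promoters. The octamer is spelled ATTTGCAT. On the other strand it is ATGCAAAT.
Hist1h2ab, chr13:23750938-23751087, plus strand: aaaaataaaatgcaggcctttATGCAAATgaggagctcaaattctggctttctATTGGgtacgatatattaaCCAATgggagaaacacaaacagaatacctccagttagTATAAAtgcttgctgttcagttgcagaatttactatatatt
Hist1h1e, chr13:23622559-23622708, minus strand: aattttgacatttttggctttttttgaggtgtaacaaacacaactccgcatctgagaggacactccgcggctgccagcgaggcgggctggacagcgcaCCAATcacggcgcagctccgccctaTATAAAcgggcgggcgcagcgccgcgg
Hist1h4d, chr13:23581418-23581567, plus strand: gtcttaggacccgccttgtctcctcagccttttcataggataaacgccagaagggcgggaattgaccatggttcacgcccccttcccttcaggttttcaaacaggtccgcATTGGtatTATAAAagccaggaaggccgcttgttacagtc
In the 250 bases before the start, searched on both strands, CCAAT stood in 38 of the 45 member promoters (84.4%) and in 34.5% of all 27025 promoters of the table. TATAAA stood in 48.9% of the member promoters against 13% of all, and the octamer in 22.2% against 1.61%. Among the 45 member promoters, CCAAT was in every H1, H2A, H2B and H3 promoter and in 3 of 10 H4 promoters. The octamer was in 5 of 11 H2A promoters and 5 of 11 H2B promoters and in none of H1, H3 or H4. These matches describe letters and are no binding sites.

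Most members rose in TAC libraries at days 4 and 7, and none passed the test at day 21. Reads of all 50 members together came to 286, 304 and 270 CPM in the sham libraries of day 4 (replicates 1, 2 and 3 in this and the later sequences of values) and to 471, 445 and 805 in the TAC libraries. At day 7 they came to 297, 308 and 281 in sham and 603, 705 and 938 in TAC libraries. At both days the 3 TAC libraries stood above the 3 sham libraries, and TAC replicate 3 was the highest. At day 2 the sums were 263, 230 and 284 in sham and 286, 371 and 453 in TAC libraries, with TAC replicate 1 next to the highest sham library. At day 21 they were 301, 317 and 277 in sham and 367, 391 and 316 in TAC libraries, and the groups overlapped. The ratio of the TAC mean to the sham mean was 1.43 at day 2, 2.00 at day 4, 2.53 at day 7 and 1.20 at day 21. A sum over chosen members has no test here. The members took 0.0222% to 0.0992% of a library, and 6 of them (Hist1h2bc, Hist1h1e, Hist1h4d, Hist1h1c, Hist1h2ak and Hist1h4h) held 64.5% of the 136570 member reads.

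**Figure D1:**
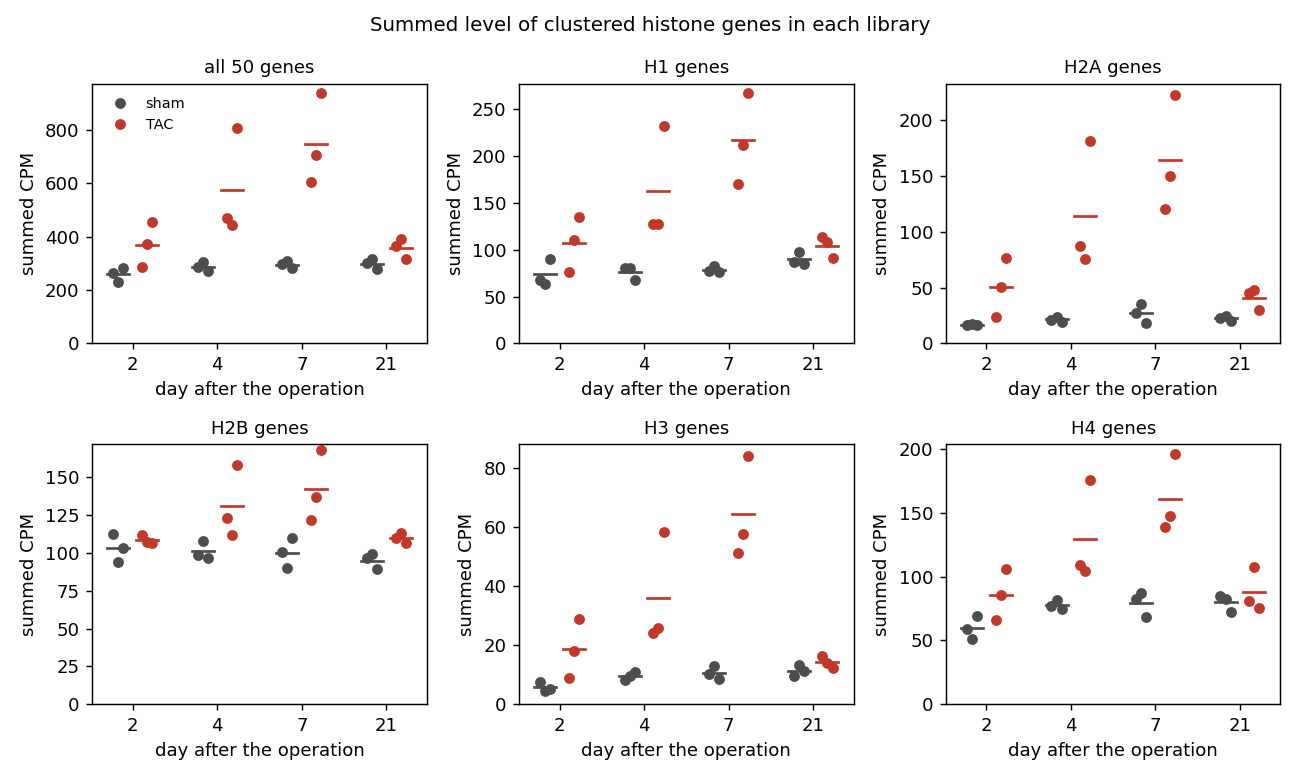
Summed level (CPM) of all 50 clustered histone genes and of each class, by day after the operation; points are libraries, lines group means, grey sham and red TAC. For all genes, TAC libraries lie at 445 to 805 CPM at day 4 and 603 to 938 CPM at day 7, above all sham libraries of the same day. In the H2B panel the TAC mean is 1.30 times the sham mean at day 4 and 1.42 times at day 7, and in the H2A panel 5.33 and 6.12 times.

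Of the 50 members, 47 passed the filter on low counts and were tested one by one with edgeR among 13816 genes, and the counts below are of these 47. At day 4, 42 rose with a TAC level above sham at an adjusted p under 0.05, where 14.4% of all tested genes rose, and 1 fell, where 10.1% of all fell. At day 7, 41 rose (13.1% of all genes) and 1 fell (10% of all genes). At day 2, 22 rose (3.73% of all genes) and none fell. At day 21 none rose (0.622% of all genes) or fell by edgeR, and DESeq2 and limma-voom called none. An unadjusted p under 0.05 by edgeR was found at day 21 for 9 members, 8 of them higher. The share of all genes with such a p is not given here. For the mean of the 4 effects 43 were called higher (24.4% of all genes) and 1 lower (21.4% of all genes). The median log2 fold change of the 47 was 1.64, 2.60, 2.68 and 0.64 at days 2, 4, 7 and 21, beside -0.0023, -0.011, 0.0032 and 0.0099 over all tested genes. Of the 47, 12 had 10 counts in fewer than 3 sham libraries and passed the filter through TAC libraries, where they had to be high. Among the other 35, a split added after seeing the data, 16 rose at day 2, 30 at day 4, 30 at day 7 and 0 at day 21, with medians of 1.5, 2.17, 2.41 and 0.56. All 3 TAC libraries stood above all 3 sham libraries in 19 of the 47 at day 2 (11.2% of all genes), 42 at day 4 (21.5%), 43 at day 7 (20.5%) and 15 at day 21 (11.9%).

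The day 2 count rests on single libraries. It was 0 without sham replicate 2, 0 without TAC replicate 3, 2 without sham replicate 3, 3 without sham replicate 1, 11 without TAC replicate 2 and 32 without TAC replicate 1, and it was 0 without the 4 libraries over 30 CPM of Myl7, a setting that leaves 1 sham library at day 2. The day 4 count was 26 without TAC replicate 3, and among the genes that lost their call were Hist1h1e (0.67, adjusted p = 0.0543), Hist1h1c (0.39, adjusted p = 0.0805), Hist2h2ac (0.65, adjusted p = 0.0973), Hist1h3f (0.88, adjusted p = 0.0906) and Hist2h4 (0.82, adjusted p = 0.102). The day 7 count was 38 to 42 with any 1 library of that day left out.

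**Figure D2:**
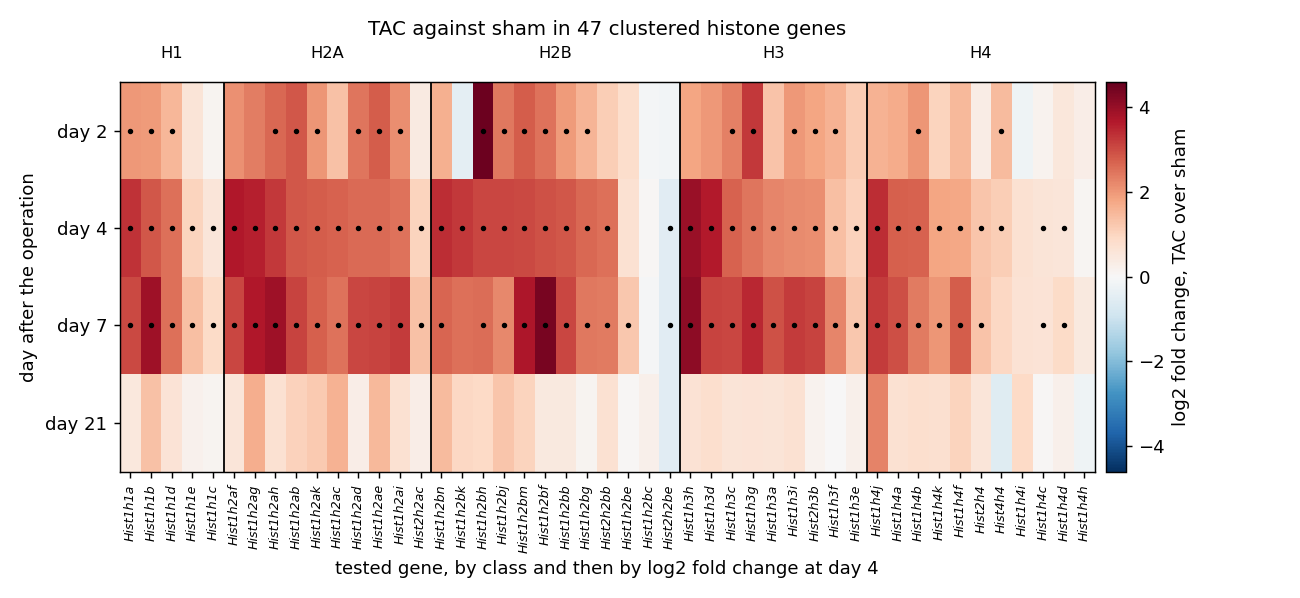
Log2 fold change (TAC over sham, colour) of the 47 tested genes at days 2, 4, 7 and 21, grouped by class; a dot marks an adjusted p under 0.05 by edgeR. Dots stand on 42 red cells at day 4 and 41 at day 7, on 1 blue cell (Hist2h2be) at each of these days, and on none at day 21.

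The linker histone genes, whose products bind the DNA between nucleosomes, rose in all 5 cases at days 4 and 7 and in 3 at day 2. Hist1h1e had the most reads of the class. It stood at 42.9, 49.8 and 38.4 CPM in sham and 67.8, 70.9 and 127 CPM in TAC libraries at day 4, and at 43.2, 49.6 and 43.7 CPM in sham and 92.4, 120 and 143 CPM in TAC libraries at day 7. The groups did not overlap at either day, and the log2 fold changes were 1.02 ± 0.24 (SE, n = 3 per group; adjusted p = 0.00438) and 1.38 ± 0.24 (adjusted p = 0.000639). The day 4 adjusted p was 0.0543 without TAC replicate 3. Hist1h1c, which also had reads in every library, rose less: from 27.1, 24.2 and 26.8 CPM in sham to 42.7, 48.1 and 54.4 CPM in TAC libraries at day 7 (log2 fold change 0.89 ± 0.14, adjusted p = 0.000345). Hist1h1d went from 4.22, 3.41 and 3.69 CPM to 14.6, 15.3 and 34.8 CPM at day 4 (2.52 ± 0.39, adjusted p = 0.000364). At day 2 Hist1h1d was at 3.03, 2.54 and 4.01 CPM in sham and 3.3, 11.5 and 12.1 CPM in TAC libraries, with TAC replicate 1 inside the sham range (1.52 ± 0.40, adjusted p = 0.0318). Hist1h1a and Hist1h1b were under 1.5 CPM in every sham library and reached 11.9 and 13.4 CPM in TAC replicate 3 of day 7.

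The rise was uneven within the class, so that its makeup shifted. Of the H1 reads, Hist1h1c took 36.3% ± 3.7 (SD, n = 3) in sham and 26.1% ± 4.3 in TAC libraries at day 4, and 33.2% ± 3.4 and 22.7% ± 2.3 at day 7. Hist1h1d took 4.95% ± 0.64 and 12.8% ± 1.9 at day 4, and 7.00% ± 1.14 and 14.4% ± 2.0 at day 7. Hist1h1e took 57% ± 4.4 and 54.5% ± 1.2 of the H1 reads at day 4, a difference within the spread of the sham libraries. These shares are descriptions of reads and were not tested.

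The H2A genes, which encode a core histone that pairs with H2B in the nucleosome, rose in 10 of 10 tested cases at days 4 and 7 and in 6 at day 2. Hist1h2ak had the most reads of them. It went from 7.91, 9.26 and 6.66 CPM in sham to 45.3, 35.9 and 84.2 CPM in TAC libraries at day 4 (2.80 ± 0.39, adjusted p = 0.000188) and from 10.1, 15.7 and 7.01 CPM to 49.4, 67.1 and 104 CPM at day 7 (2.75 ± 0.38, adjusted p = 0.000144). At day 2 it was at 5.20, 6.05 and 4.01 CPM in sham and 9.25, 21.2 and 31.2 CPM in TAC libraries (2.02 ± 0.40, adjusted p = 0.01), with no overlap. At day 21 the TAC libraries were still above the sham libraries, at 19.0, 17.7 and 13.7 CPM against 8.81, 7.52 and 5.66 CPM, and the difference missed the threshold (1.19 ± 0.40, adjusted p = 0.135). Hist1h2ab rose by a log2 fold change of 2.86 ± 0.51 at day 2 (adjusted p = 0.00769), 2.84 ± 0.46 at day 4 (adjusted p = 0.000472) and 3.12 ± 0.45 at day 7 (adjusted p = 0.000165). Hist2h2ac, the tested H2A gene of the Hist2 cluster, moved least in the class, from 8, 7.07 and 6.99 CPM to 11.1, 12 and 21.3 CPM at day 4 (1.02 ± 0.26, adjusted p = 0.00829; 0.0973 without TAC replicate 3). The largest log2 fold changes were in genes with few reads: Hist1h2af went from 0, 0.244 and 0.161 CPM to 1.49, 0.904 and 3.16 CPM at day 4 (3.68 ± 0.81, adjusted p = 0.00329). Hist1h2ah went from 0.632, 0.259 and 0.621 CPM to 7.32, 4.89 and 10.8 CPM at day 7 (3.90 ± 0.65, adjusted p = 0.000564). Summed over the class, H2A reads were 5.33 times as high in TAC as in sham libraries at day 4 and 6.12 times at day 7.

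Hist1h2ag and Hist1h2ac followed Hist1h4j among the members with the largest log2 fold changes at day 21, and neither passed the test. Hist1h2ag was at 0.218, 0.564 and 1.15 CPM in sham and 3.21, 1.74 and 1.33 CPM in TAC libraries (1.68 ± 0.80, adjusted p = 0.282). Hist1h2ac was at 0.510, 0.846 and 0.382 CPM in sham and 2.41, 1.83 and 1.03 CPM in TAC libraries (1.60 ± 0.61, adjusted p = 0.174). In both genes the 3 TAC libraries of day 21 stood above the 3 sham libraries.

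The H2B genes held the member with the most reads and the only member that fell at days 4 and 7. Of 12 tested, 9 rose and 1 fell at days 4 and 7, and 6 rose at day 2. Hist1h2bc took 19.7% of all member reads and did not pass the test at any day. It was at 81.9, 92.9 and 79.4 CPM in sham and 91.4, 81.7 and 90.6 CPM in TAC libraries at day 4 (0.05 ± 0.11, adjusted p = 0.749), and at 76.3, 69.5 and 89.7 CPM in sham and 70.0, 76.1 and 80.3 CPM in TAC libraries at day 7 (-0.06 ± 0.11, adjusted p = 0.734). The groups overlapped at both days. At day 21 Hist1h2bc was at 75.95, 75.88 and 69.91 CPM in sham and 84.1, 91.6 and 85.9 CPM in TAC libraries, with no overlap. Its share of all member reads went from 29.6% ± 0.98 (SD, n = 3) in sham to 16.3% ± 4.4 in TAC libraries at day 4 and from 26.7% ± 4.8 to 10.3% ± 1.6 at day 7, while at day 21 it was 24.8% ± 0.75 and 24.5% ± 2.4. With Hist1h2bc in the sum, H2B reads were 1.30 times as high in TAC as in sham libraries at day 4 and 1.42 times at day 7, and without it 2.67 and 3.07 times. At day 21 the H2B sums were 89.3 to 99.1 CPM in sham and 107 to 113 CPM in TAC libraries. Without Hist1h2bc they were 19.4 to 23.2 and 20.7 to 25.8 CPM, and the groups overlapped.

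Hist2h2be was the member that fell. At day 4 it was at 6.86, 7.88 and 9.48 CPM in sham and 5.96, 5.49 and 5.29 CPM in TAC libraries (-0.53 ± 0.18, adjusted p = 0.0327), and at day 7 at 10.5, 8.73 and 11.5 CPM in sham and 6.35, 8.58 and 6.71 CPM in TAC libraries (-0.51 ± 0.17, adjusted p = 0.0373). All TAC libraries stood below all sham libraries at these days and at day 21, where the log2 fold change was -0.53 ± 0.18 and missed the threshold (adjusted p = 0.135). The call rests on single libraries: the adjusted p was 0.154 at day 4 without sham replicate 3, 0.126 without TAC replicate 3, 0.0656 without sham replicate 2 and 0.0599 without TAC replicate 2. At day 7 it was 0.166 without TAC replicate 1, 0.148 without sham replicate 3, 0.113 without TAC replicate 3 and 0.0917 without sham replicate 1.

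Among the H2B genes with few reads the changes were large. Hist1h2bf was at 0.0789, 0.173 and 0.0887 CPM in sham and 1.89, 2.24 and 3.29 CPM in TAC libraries at day 7 (4.35 ± 0.56, adjusted p = 8.89e-05), the largest log2 fold change of a member at that day. Hist1h2bh had the largest at day 2, where it rested on 1 count in the 3 sham libraries against 34 in the 3 TAC libraries, a ratio of 32.7 with a 95% interval of 5.48 to 1327 that covers counting error only. Hist2h2bb went from 2.02, 0.731 and 1.69 CPM to 5.35, 5.77 and 14.7 CPM at day 4 (2.55 ± 0.44, adjusted p = 0.000629). Hist1h2bk had 88 counts in sham replicate 2 of day 2 and 2 and 0 in the other sham libraries of that day, and its log2 fold change at day 2 was -0.45 ± 0.88 (adjusted p = 0.823). At day 4 Hist1h2bk passed the test, from 0.352, 0.162 and 0.321 CPM to 1.97, 1.18 and 4.92 CPM (3.26 ± 1.12, adjusted p = 0.0383), and the adjusted p was 0.0861 to 0.205 without any of the 3 sham libraries or without TAC replicate 3.

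**Figure D3:**
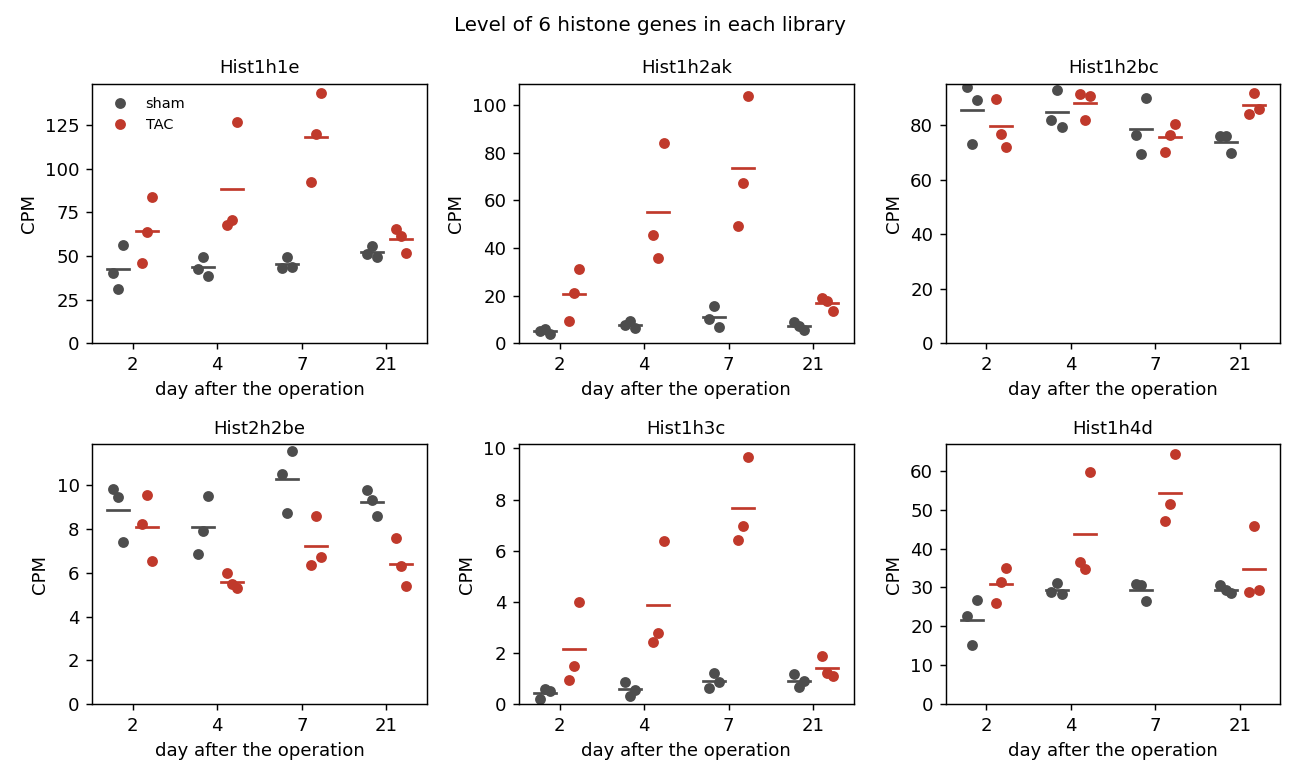
Level (CPM) of 6 members in each library by day after the operation; points are libraries, lines group means, grey sham and red TAC. Hist1h2bc stays between 69.5 and 93.9 CPM in all 24 libraries, with the TAC libraries above the sham libraries at day 21 only. Hist2h2be is lower in TAC libraries from day 4, while Hist1h1e, Hist1h2ak, Hist1h3c and Hist1h4d are higher in TAC libraries at days 4 and 7.

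The H3 genes, which encode the core histone whose tail carries many of the known regulatory marks, rose in all 9 tested cases at days 4 and 7 and in 5 at day 2. Each was low in sham libraries. Hist1h3f, with the most reads, went from 2.21, 3.63 and 1.86 CPM in sham to 11.3, 11.1 and 14.4 CPM in TAC libraries at day 7 (2.25 ± 0.35, adjusted p = 0.000276). Hist1h3c went from 0.632, 1.21 and 0.887 CPM to 6.41, 6.97 and 9.68 CPM (3.08 ± 0.48, adjusted p = 0.000299). At day 21 Hist1h3f was back at 3.56, 3.14 and 3.17 CPM in TAC against 2.77, 4.23 and 2.91 CPM in sham libraries (0.01 ± 0.36, adjusted p = 0.997). Hist1h3e rose least, by 1.07 ± 0.37 at day 4 (adjusted p = 0.0406) and 1.23 ± 0.36 at day 7 (adjusted p = 0.0206). Its calls were lost at day 4 without sham replicate 1, sham replicate 2 or TAC replicate 3 (adjusted p = 0.129 to 0.245) and at day 7 without sham replicate 1, sham replicate 3 or TAC replicate 3 (adjusted p = 0.0636 to 0.0882). Hist1h3h rose most, by 3.96 ± 0.78 (adjusted p = 0.00156) and 4.13 ± 0.68 (adjusted p = 0.000452). Hist1h3h was at 0.395, 0.173 and 0.444 CPM in sham and 4.27, 6.25 and 7.66 CPM in TAC libraries at day 7. Hist1h3g had, after Hist1h2bh, the largest log2 fold change of a member at day 2 (3.25 ± 0.77, adjusted p = 0.0203), from 0.395, 0.121 and 0.0717 CPM to 0.402, 2.31 and 2.98 CPM, with TAC replicate 1 at the level of the highest sham library. Hist1h3d had 3 counts in the sham libraries of day 4 against 56 in the TAC libraries, a ratio of 14.1 with a 95% interval of 4.58 to 70.4 from counting error. Summed over the class, H3 reads were 3.78 times as high in TAC as in sham libraries at day 4 and 6.08 times at day 7.

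The H4 genes, which encode the partner of H3, rose in 9 of 11 tested cases at day 4, 8 at day 7 and 2 at day 2. Hist1h4d was at 28.8, 31.3 and 28.3 CPM in sham and 36.5, 34.8 and 59.6 CPM in TAC libraries at day 4 (0.57 ± 0.21, adjusted p = 0.0481), and the adjusted p was 0.0799 to 0.389 without any 1 of the sham libraries or without TAC replicate 3. With the replicate block it was 0.0521. At day 7 it was at 30.8, 30.7 and 26.4 CPM in sham and 47.1, 51.5 and 64.3 CPM in TAC libraries (0.89 ± 0.21, adjusted p = 0.00547). Hist1h4c rose by 0.60 ± 0.21 at day 4 (adjusted p = 0.0413) and 0.61 ± 0.21 at day 7 (adjusted p = 0.0389), and leaving out 1 library ended its call in 5 of 6 cases at each day (adjusted p = 0.0504 to 0.274 at day 4, without TAC replicate 2 excepted, and 0.0568 to 0.172 at day 7, without TAC replicate 2 excepted). Hist1h4h, at 24.8, 26 and 24.9 CPM in sham and 23.1, 25.8 and 31.0 CPM in TAC libraries at day 4, did not pass the test at any day (0.08 ± 0.21 at day 4, adjusted p = 0.809, and 0.45 ± 0.21 at day 7, adjusted p = 0.117). Hist1h4i did not pass either (0.69 ± 0.50 at day 4, adjusted p = 0.326, and 0.65 ± 0.47 at day 7, adjusted p = 0.326).

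Among the low H4 genes, Hist1h4j went from 0.237, 0.432 and 0.355 CPM to 3.36, 2.81 and 3.48 CPM at day 7 (3.21 ± 0.57, adjusted p = 0.000764). It also had the largest log2 fold change of the members at day 21, at 0.0728, 0.0940 and 0.153 CPM in sham and 0.445, 0.872 and 0.368 CPM in TAC libraries (2.29 ± 0.82, adjusted p = 0.156). Summed over the class, H4 reads were 1.67 times as high in TAC as in sham libraries at day 4 and 2.04 times at day 7.

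The clusters differ in where they lie: Hist1 is on chromosome 13, Hist2 on chromosome 3 and Hist4h4 on chromosome 6 in the RefSeq and GENCODE annotation. Of the Hist1 genes, 37 of 41 tested rose at days 4 and 7. Of the 5 tested Hist2 genes, 4 rose at both days and 1, Hist2h2be, fell. In the Hist2 cluster, Hist2h3b went from 1.03, 0.692 and 0.532 CPM to 5.92, 4.09 and 9.49 CPM at day 7 (3.09 ± 0.45, adjusted p = 0.000181) and Hist2h4 from 4.11, 3.80 and 3.82 CPM to 8.91, 8.10 and 12.4 CPM (1.33 ± 0.32, adjusted p = 0.00634). Hist4h4 rose at day 2, from 0.461, 1.33 and 1 CPM to 3.62, 1.62 and 2.53 CPM (1.44 ± 0.37, adjusted p = 0.0293), and at day 4 (1.12 ± 0.37, adjusted p = 0.0299; 0.112 to 0.156 without sham replicate 1, sham replicate 3 or TAC replicate 3). At day 21 Hist4h4 was at 2.77, 2.63 and 1.53 CPM in sham and 1.51, 1.74 and 1.47 CPM in TAC libraries (-0.55 ± 0.37, adjusted p = 0.456). Along chromosome 13 the members fall into 2 stretches of neighbouring genes, and the median log2 fold change at day 4 was 3.05 over the 14 tested in one and 2.60 over the 27 in the other. The filter on low counts takes part in this contrast. In the stretch of 14, Hist1h3h, Hist1h2bm, Hist1h4j, Hist1h2bn, Hist1h2ah, Hist1h2bk and Hist1h2bj passed it through TAC libraries, where they had to be high. In the stretch of 27, Hist1h2ae, Hist1h2af, Hist1h2bf, Hist1h2bh and Hist1h3d did so.

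The called genes overlapped between the days. All 22 members called at day 2 were called at day 4, 21 were called at days 2, 4 and 7, and 40 at days 4 and 7. With 42 of the 47 tested members called at day 4 and 41 at day 7, most of this overlap follows from the counts alone. The share of all tested genes called at more than 1 day is not given here. Hist1h2bk and Hist4h4 were called at day 4 and not at day 7, and Hist1h2be at day 7 and not at day 4. Hist1h2bc, Hist1h4h, Hist1h4i and Hist2h2be were not called higher at day 2, 4 or 7. Each day had its own sham libraries.

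The change of the effect between days was tested directly, and no member passed. In the F test over the 4 days 0.369% of all genes and none of the members passed, with 26 members at an unadjusted p under 0.05. The effect at day 21 minus that at day 7 had a median of -1.68 on the log2 scale over the 47, with 32 members at an unadjusted p under 0.05, none called by edgeR or limma-voom and 4 called by DESeq2. For day 21 minus day 4 the median was -1.79, with 24 members at an unadjusted p under 0.05, none called by edgeR or limma-voom and 1 called by DESeq2. For day 4 minus day 2 the median was 0.61 and for day 7 minus day 4 it was 0.21, with 3 and 0 members at an unadjusted p under 0.05 and none called by edgeR, DESeq2 or limma-voom. Over the sham libraries of the 4 days no member differed (0.68% of all genes passed, and 5 members had an unadjusted p under 0.05). Over all tested genes the median was -0.0056 for day 21 minus day 7 and 0.00029 for day 21 minus day 4. The share of all genes at an unadjusted p under 0.05, or called by DESeq2 in these contrasts, is not given here. These counts therefore describe the members only.

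Levels of different genes were compared per length, as RPKM of the authors' table, over the 12 sham libraries. Hist1h2bc at 164 ± 22.2 RPKM (SD, n = 12) and Hist1h4d at 164 ± 25.6 RPKM were highest, and in RPKM they did not differ beyond their spread. By counts they differed: sham libraries of day 4 held 81.9, 92.9 and 79.4 CPM of Hist1h2bc and 28.8, 31.3 and 28.3 CPM of Hist1h4d. Their longest GENCODE models are alike, at 1156 and 1138 bases. The lengths behind the RPKM are not stated in the sources used here, so that the order of levels between genes is uncertain. In RPKM, Hist1h4h at 104 ± 21.6, Hist1h1e at 91.2 ± 13 and Hist1h4c at 80.1 ± 11.6 followed, with neighbours in this order within each other's spread. Then came Hist1h1c at 60.1 ± 5.09 RPKM, Hist2h2ac at 31.7 ± 4.02 RPKM and Hist1h2ak at 25.8 ± 9.72 RPKM. The SD of Hist1h2ak covers its gap to Hist2h2ac. The other 39 tested members had mean levels of 0.637 RPKM (Hist1h2bf) to 19.2 RPKM (Hist2h4), and the gap to the next member in the order was smaller than the SD except after Hist2h4.

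The log2 fold changes were set beside these levels. Over the 47 tested members, the sham level of the other 3 days and the log2 fold change of a day had a Spearman correlation of -0.59 at day 2, -0.74 at day 4, -0.69 at day 7 and -0.45 at day 21. These are descriptions across genes that share libraries and sequence, with no test. They rest on RPKM, whose gene lengths are not known. Over the 12 sham libraries Hist2h2be had 1410 counts at 3.1 RPKM and Hist2h2ac 1179 counts at 31.7 RPKM. The 8 highest members had a median log2 fold change of 0.59 at day 4 and 0.89 at day 7 and rose in 6 cases at each day, while the other 39 had medians of 2.71 and 2.95 and rose in 36 and 35 cases. The filter on low counts takes part in this contrast: 12 of the 39 had 10 counts in fewer than 3 sham libraries and passed through TAC libraries, so that genes as low in sham that did not rise could not enter. Over the other 27 the medians were 2.49 at day 4 and 2.78 at day 7, and 24 rose at each day. Hist1h2ak stood apart from the other high genes, with log2 fold changes of 2.80 and 2.75.

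**Figure D4:**
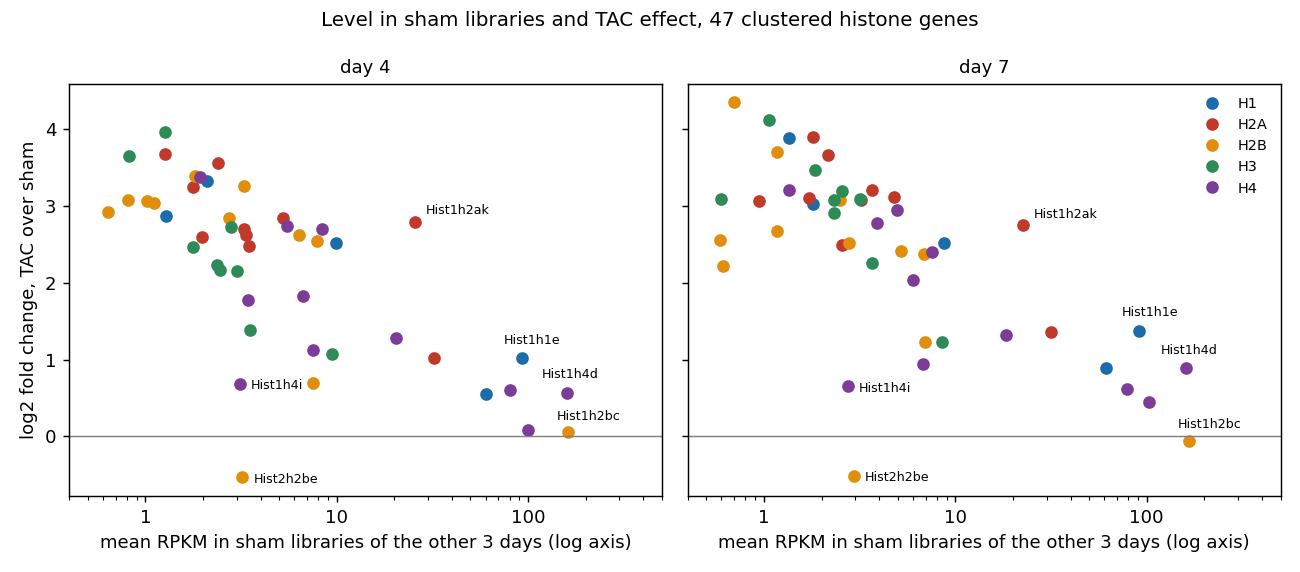
Mean RPKM in the sham libraries of the other 3 days (log axis) against the log2 fold change of TAC over sham at days 4 and 7; each point is 1 of the 47 tested genes, coloured by class. The 6 genes above 50 RPKM lie between -0.06 and 1.38 at both days, and most genes under 10 RPKM lie above 2.

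Sequence that members share limits how far single genes can be told apart. In GENCODE transcripts, 21 of the 50 members had over 50% of their 50-base windows in common with another gene, and the sources used here do not say how the authors' counting placed such reads. The 19 of these that were tested all rose at day 4 (median log2 fold change 2.80), where 14.4% of all tested genes rose. Of the 19, Hist1h2af, Hist1h2ah, Hist1h2bf, Hist1h2bj, Hist1h2bk, Hist1h2bn and Hist1h3h passed the filter on low counts through TAC libraries. These genes had to be high there to be tested, so that the filter takes part in any contrast with other members. Of the 7 tested members with under 10% shared, which all reached the minimum count in sham libraries, 6 rose and 1 fell at day 4 (median 1.29). Among them Hist1h1a, with none of its windows shared, went from 0.703, 0.731 and 0.402 CPM to 3.93, 3.27 and 11.3 CPM at day 4 (3.33 ± 0.58, adjusted p = 0.000665). Hist1h1b, also with none shared, went from 0.632, 0.865 and 0.444 CPM to 6.78, 8.90 and 13.4 CPM at day 7 (3.89 ± 0.51, adjusted p = 9.60e-05). Exons of 16 members overlap those of another annotated gene, among them Hist1h1e and Hist1h2be on the same strand, and the counting's strand setting is unknown, so that values of such pairs are uncertain.

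Annotated transcripts of some members run on past the hairpin. The 15 tested members whose longest model continued for 300 bases or more, a limit chosen with the values in view, had a median log2 fold change of 1.12 at day 4 and 1.33 at day 7, and 13 rose at each day. The 16 with a hairpin and a model ending within 300 bases had medians of 2.71 and 2.99, with 15 and 14 that rose, and the 16 with no hairpin found had 2.64 and 3.05, with 14 that rose at each day. Each of these sets held members that passed the filter on low counts through TAC libraries, where they had to be high. Promoters with CCAAT belonged to 35 tested members, of which 34 rose at day 4, and 5 of the 7 without it, all H4 genes, rose. The tested members with no promoter entry are outside these counts. Of them Hist1h2bc and Hist2h2be did not rise at day 4, and Hist1h3a, Hist1h3f and Hist2h4 did.

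The 3 members that did not pass the filter on low counts had at most 15 counts in a library. In a fit without that filter Hist1h2bl passed at day 7 (log2 fold change 3.70, adjusted p = 0.0427), with 1, 0 and 0 counts in sham and 4, 5 and 12 in TAC libraries. Hist1h3b missed the threshold at day 4 (3.31, adjusted p = 0.0659) and day 7 (2.89, adjusted p = 0.0723). Hist2h2ab, with 6, 4 and 2 counts in sham and 2, 4 and 9 in TAC libraries, had a log2 fold change of 0.01 at day 7 (adjusted p = 1).

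Genes that act in the same process were given as lists, by their counts and medians. Of all tested genes 3.73%, 14.4%, 13.1% and 0.622% rose at days 2, 4, 7 and 21. Of 31 S phase and DNA replication genes, 10, 17, 25 and 0 rose at these days (32.3%, 54.8%, 80.6% and 0%), with median log2 fold changes of 0.66, 0.87, 1.12 and 0.23. Day 2 calls rest on single libraries here too: over all genes they ranged from 12 to 1835 with 1 library left out. Ccna2, the cyclin of S phase, went from 1.85, 3.49 and 2.81 CPM to 19.9, 17.3 and 47.8 CPM at day 4 (3.38 ± 0.46, adjusted p = 0.00017). E2f1, a transcription factor of S phase entry, rose by 2.16 ± 0.36 at day 4 (adjusted p = 0.000582) and the DNA ligase Lig1 by 1.33 ± 0.31 (adjusted p = 0.00502). Of 15 genes of G2 and mitosis, 11, 14, 14 and 0 rose (73.3%, 93.3%, 93.3% and 0%), with medians of 2.20, 3.22, 2.99 and 1.06. Mki67, a protein of dividing cells, went from 29.7, 29.9 and 28.5 CPM to 198, 152 and 419 CPM at day 4 (3.13 ± 0.42, adjusted p = 0.00017). In TAC libraries of days 2, 4 and 7 the library with the highest member sum was replicate 3, and it also had the highest Mki67 and the highest sum of S phase genes. At day 21 the member sum was highest in TAC replicate 2, and Mki67 and the S phase sum in replicate 1.

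Of 22 histone chaperones, which carry histones to DNA, 2, 4, 6 and 0 rose at days 2, 4, 7 and 21, with medians of 0.12, 0.11, 0.13 and 0.04. The share that rose was 9.09%, 18.2% and 27.3% at days 2, 4 and 7, against 3.73%, 14.4% and 13.1% of all tested genes, so that at day 4 it was near the background. Chaf1a and Chaf1b, subunits of the assembly factor that follows the replication fork, rose by 1.5 ± 0.26 (adjusted p = 0.000673) and 2.68 ± 0.60 (adjusted p = 0.00349) at day 4, and Asf1b, which hands them H3 and H4, by 1.93 ± 0.40 (adjusted p = 0.0021). The importin Ipo4 rose at day 2, from 34.0, 35.5 and 36.2 CPM to 40.6, 54.3 and 62.7 CPM (0.58 ± 0.12, adjusted p = 0.0128), and had log2 fold changes of 0.28 ± 0.12 at day 4 (adjusted p = 0.094) and 0.08 ± 0.12 at day 7 (adjusted p = 0.685).

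Of 12 tested genes for transcription and 3′ end processing of histone mRNA, 1 rose and 1 fell at day 4 and 2 rose at day 7, shares of 8.33% and 16.7% that are near the 14.4% and 13.1% of all tested genes. Slbp, the stem-loop binding protein, went from 13, 12.9 and 13.4 CPM to 16.1, 17.1 and 25.3 CPM at day 4 (0.58 ± 0.16, adjusted p = 0.0127) and rose by 0.60 ± 0.16 at day 7 (adjusted p = 0.0116). The scaffold Sympk fell at day 4 (-0.34 ± 0.11, adjusted p = 0.0284). Srrt, which links capped RNA to processing factors, rose at day 7 (0.35 ± 0.11, adjusted p = 0.0298). The exonuclease Eri1, which trims histone mRNA ends, missed the threshold at that day (0.36 ± 0.13, adjusted p = 0.050045).

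Histone genes outside the 3 clusters of the rule, among them the Hist3 gene Hist3h2a, moved less. Of 14 tested, 0, 3, 8 and 0 rose at days 2, 4, 7 and 21 and 1 fell at day 4, with medians of 0.16, 0.28, 0.38 and 0.10. The share that rose was 21.4% at day 4 and 57.1% at day 7, against 14.4% and 13.1% of all tested genes. H2afz, which encodes H2A.Z, went from 30.9, 41.4 and 36.7 CPM to 53.3, 49.4 and 77.0 CPM at day 4 (0.72 ± 0.17, adjusted p = 0.00561), and H2afx, whose product marks DNA breaks, from 6.59, 7.07 and 5.54 CPM to 13.1, 12.2 and 22.6 CPM (1.32 ± 0.29, adjusted p = 0.00334). H3f3b, an H3.3 gene, was at 92.0, 91.1 and 91.5 CPM in sham and 123.9, 122.4 and 125.5 CPM in TAC libraries at day 7 (0.44 ± 0.09, adjusted p = 0.00236). Hist3h2a, an H2A gene outside the 3 clusters of the rule, rose by 0.77 ± 0.14 at day 4 (adjusted p = 0.000896) and 1.16 ± 0.14 at day 7 (adjusted p = 6.99e-05).

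**Figure D5:**
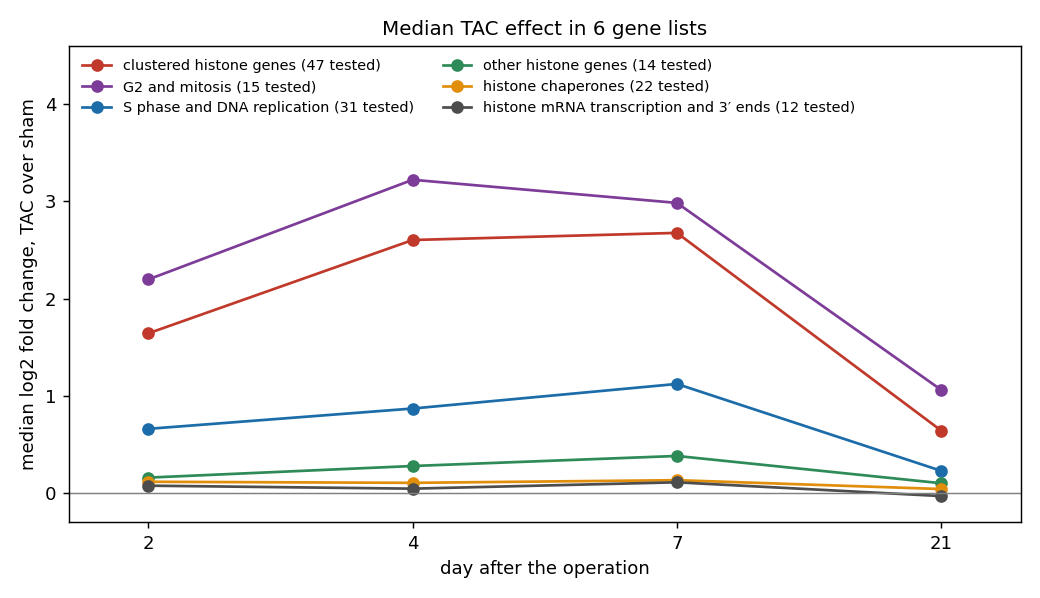
Median log2 fold change (TAC over sham) of 6 gene lists by day after the operation, with the number of tested genes of each list. The clustered histone genes lie at 1.64, 2.60, 2.68 and 0.64, between the genes of G2 and mitosis and those of S phase, and the histone chaperones stay at 0.13 or less.

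Markers of other cell types moved in the same libraries, and their part in the histone result was not tested. Beside the counts below, 3.73%, 14.4%, 13.1% and 0.622% of all tested genes rose at days 2, 4, 7 and 21. At days 4 and 7, 10.1% and 10% of all tested genes fell. Of 13 tested macrophage and monocyte markers 5, 12, 11 and 0 rose at days 2, 4, 7 and 21, and their summed level was 314 to 356 CPM in sham and 717 to 953 CPM in TAC libraries at day 4 and 316 to 337 and 399 to 647 CPM at day 7. Of 7 fibroblast markers 4 rose at day 4 and 5 at day 7, and their sum was 1294 to 1568 CPM in sham and 4160 to 8467 CPM in TAC libraries at day 4 and 1418 to 1803 and 1846 to 8793 CPM at day 7. Over the 3 TAC replicates of day 4 the fibroblast sums of 8126, 4160 and 8467 CPM had the same order as the histone sums, and the macrophage sums of 953, 717 and 812 CPM did not. At day 2 the macrophage sums of 388, 554 and 704 CPM had the order of the histone sums, and the fibroblast sums of 1607, 2957 and 2725 CPM did not. At day 7 neither had it, with fibroblast sums of 8793, 1846 and 4135 CPM and macrophage sums of 647, 399 and 539 CPM. The endothelial sums of the TAC libraries had that order at day 7 (1117.6, 1262.5 and 1351.4 CPM) and not at days 2 and 4. The neutrophil sums had it at day 2 (6.27, 14.4 and 25.3 CPM) and not at days 4 and 7. The sums of atrial markers had it at day 2 only (766, 1114 and 1559 CPM) and the erythroid sums at day 7 only (9.58, 9.78 and 10.8 CPM). The lymphocyte sums had it at none of these days. The heart muscle sums ran in the reverse order at days 2 and 4 and not at day 7. An order of 3 libraries can match by chance. Of 7 heart muscle markers 3 fell at day 4 and 4 at day 7, with sums of 86912 to 101730 CPM in sham and 62621 to 81864 CPM in TAC libraries at day 4 and of 90967 to 94593 and 49889 to 82360 CPM at day 7. Of 6 endothelial markers 2 fell at day 4, and 2 rose and 1 fell at day 7, with sums of 1067 to 1166 CPM in sham and 941 to 1065 CPM in TAC libraries at day 4 and of 1000 to 1049 and 1118 to 1351 CPM at day 7. Of the 4 tested lymphocyte and the 4 tested neutrophil markers none passed at days 4 and 7, and their summed levels were 2.45 to 7.51 and 5.41 to 25.3 CPM over all 24 libraries. At day 7 the lymphocyte sums were 3.28 to 4.06 CPM in sham and 5.29 to 7.51 CPM in TAC libraries, and at day 4 the groups overlapped. At day 4 the neutrophil sums were 9.10 to 10.7 CPM in sham and 12.8 to 13.4 CPM in TAC libraries, and at day 7 the groups overlapped. The neutrophil gene Elane had no count in any library.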

How the data were processed

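RNA-seq of left ventricles from 24 libraries (8 groups of 3) was analysed. Raw counts by gene symbol and RPKM (reads scaled to length and depth) came as separate tables, both deposited by the authors. TopHat, DESeq and hg19 are named, without versions, per the submitters' processing notes; hg19 is a human build, and no mouse build, annotation, counter or strand setting is stated in the sources used here. The fit used edgeR 4.0.16 (R 4.3.3): filterByExpr with a minimum count of 10 chose the genes, TMM scaled the libraries, and a quasi-likelihood model with 8 group means and 16 residual degrees of freedom was fitted to 13816 genes. All tests were two-sided, with a threshold of 0.05 on the Benjamini-Hochberg adjusted p over these genes. The SE is the log2 fold change divided by the square root of F, and CPM are counts per 1e+06 of the TMM-scaled library total.

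The members and lists were chosen with earlier results of these data known. The rule for named genes took, in each class, the 3 tested members with the highest average CPM, at each day the 3 largest and 3 smallest log2 fold changes, members called against the rest, Hist4h4 and all tested Hist2 members, and from each list up to 4 genes with the smallest p for the mean effect. Hist1h1a, Hist1h1b, Hist1h2be, Srrt and members that missed the filter were added with their values seen.

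Depth was 10689684 to 17563210 counts. The biological coefficient of variation was 0.146, and replicates differed by 3.65 to 62.1 in chi-square over its degrees of freedom, beyond sampling noise. In simulated data of the day 4 comparison (13629 genes), 80% of genes changed 2-fold and 90% of those changed 4-fold were found, and 5.03% of calls were false. The labels do not say whether replicate numbers pair the samples. Of 12 same-day pairs 1 had a correlation over 0.1 (-0.151 to 0.141), a check that cannot exclude a pairing or a batch. Alternatives were RLE scaling, other count filters, DESeq2 1.42.0, limma-voom (limma 3.58.1), limma on log2(RPKM + 0.1) of genes with at least 0.5 RPKM in 3 libraries, the replicate block, only the 2 groups of a day, each library left out and, added after seeing the data, the 4 libraries over 30 CPM of Myl7 left out and only members with 10 counts in at least 3 sham libraries. Transcripts are those of GENCODE M21 and promoters those of RefSeq on GRCm38.p6; all 50 members were matched by symbol in both annotations.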

Additional observations from a re-analysis of the deposited data

Results flagged for a closer look

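Hist1h4m, an H4 gene outside the members, was at 0 in the count table throughout, yet the authors' RPKM table gave it values above 0, which the comparisons do not use. Its mean was 26.7 ± 15.3 RPKM (SD, n = 3) in TAC and 7.14 ± 2.24 RPKM in sham libraries at day 4. At day 7 it was 36.1 ± 18.6 RPKM in TAC and 9.57 ± 3.25 RPKM in sham libraries. In GENCODE, 89.8% of its 50-base windows also occur in another gene, most of them in Hist1h4n. Of the 12 clustered histone symbols at a count of 0, 9 had over 80% of their windows in common with another gene. The difference between the tables was not tested.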

How the results depend on the processing

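Of the member counts, that of day 2 depended most on the processing: 22 members were called higher, and 1 with limma-voom, 12 with the RPKM table, 0 with only the groups of day 2 and 0 without the 4 libraries over 30 CPM of Myl7. With 1 library left out it ranged from 0 to 32, that of day 4 from 26 to 42, that of day 7 from 38 to 42 and that of the mean effect from 42 to 44. The 1 member lower at day 4 became 0 with only the groups of that day, and that of day 7 became 0 with no filter, with the RPKM table, with only the groups of that day and without the Myl7 libraries; leaving out 1 library gave 0 to 1 at both days. With the replicate block, 20, 41, 41 and 0 members were higher at days 2, 4, 7 and 21 and 43 for the mean effect. Whether the replicate numbers pair the samples is not known. The summed ratio ranged over libraries left out from 1.27 to 1.59 at day 2, 1.60 to 2.23 at day 4, 2.21 to 2.78 at day 7 and 1.14 to 1.27 at day 21. Without the member with most reads in each class the day 7 ratio was 3.22. The H2B ratio of day 2 was 1.05, and 0.963 without the Myl7 libraries. Of 27 named calls at day 4, 12 were lost without TAC replicate 3; the causes were not tested. Over all genes, calls at day 2 went from 633 to 292 with limma-voom, 231 with the RPKM table and 0 with only the groups of that day or without the Myl7 libraries, and at day 21 from 151 to 436 with DESeq2.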
